A study of Danio rerio with 33 samples.

Results

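The miR-26, miR-29 and miR-101 families were followed through embryo and adult tissues of zebrafish. All rows of the known mature miRNA tables that carry these family numbers were taken, which gave 6 miRNAs of 247, namely dre-miR-26a, dre-miR-26b, dre-miR-29a, dre-miR-29b, dre-miR-101a and dre-miR-101b. A count was found in any library for 238 of the 247 miRNAs, and all 6 members had counts in every library. Small RNA was sequenced from untreated wild type fish of a Singapore strain bought from a supplier. The adult groups were brain, gut and liver of each sex, the gonads (ovary or testis), heart and eye, and each adult replicate was RNA pooled from several fishes of unstated age. The embryo group combined early embryonic stages of the first day with juveniles, so it is a mixture of ages and its sex is not given. The labels give no sex for eye and heart, and the study's text states that they came from males. Each group had 3 libraries except heart, which had 2, giving 32 libraries in 11 groups. The study's text states that a heart replicate was removed because it did not cluster with the others. The shallowest library, ovary replicate 1, had a total count of 277699 on known miRNAs, and the deepest, heart replicate 2, had 11732555.

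MicroRNAs are short RNAs that guide Argonaute proteins to messenger RNAs and lower their output, and the bases near their 5′ end, the seed, choose most of the targets. The miR-26 genes of vertebrates lie in introns of genes for small CTD phosphatases (CTDSP), and in zebrafish miR-26b was described as a repressor of its own host ctdsp2 during neuron differentiation. In mammals the miR-29 family is known for repressing collagens and other matrix genes and the DNA methyltransferases DNMT3A and DNMT3B. The miR-101 family is known in human cells as a repressor of EZH2, the histone methyltransferase of Polycomb complex PRC2.

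The genes of the members were looked up by name in the RefSeq annotation of assembly GRCz12tu, and 10 genes were found, of which 8 lay within the span of another gene. The row of dre-miR-26a stands for 3 genes, which lie within ctdsp1, ctdsplb and ctdspla, and the gene of dre-miR-26b lies within ctdsp2, so all 4 are in genes of the same phosphatase family. The gene of dre-miR-29a and 1 of the 3 genes of dre-miR-29b are neighbours within asb13a.2. The gene of dre-miR-101b lies within the span of rcl1, which encodes an RNA terminal phosphate cyclase-like protein, and of si:ch73-55i23.1, while that of dre-miR-101a overlaps no other gene. The counts do not tell apart genes that give the same mature miRNA, and reads of closely related members such as dre-miR-101a and dre-miR-101b could be counted on more than one row.

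The marker miRNAs of the tissues were read first. The brain list (miR-9 and miR-124) summed to 118688 to 153116 normalized counts in brain, the gut list (miR-192 and miR-194) to 208330 to 286946 in gut, and the liver marker miR-122 to 31463 to 124047 in liver. Here a normalized count is the read count multiplied by a single factor per library. Both heart libraries also held the eye list (miR-183, miR-96 and miR-182, 4 of 4 rows) at 59124 to 72273, beside 83185 to 86719 in eye. Most of this sum was dre-miR-182-5p, with means of 60452 in heart and 66340 in eye. The mean of dre-miR-96 was lower in heart (3021) than in eye (16300), and that of dre-miR-183 was higher (2185 beside 1868). The heart libraries held the brain list at 22516 to 26629, beside 44800 to 54081 in eye. Within that list dre-miR-124 averaged 3325 in eye and 1784 in heart, above 811 in male and 923 in female brain. The miR-9 rows were highest in brain. Eye and heart differed from each other for 4.62% of all miRNAs tested. The muscle list (miR-1, miR-133, miR-206 and miR-499) summed to 8171 to 9368 in heart, 1387 to 1574 in eye and 9912 to 10419 in embryo. Within it dre-miR-499 averaged 1724 in heart, and its next highest group was female liver with 178. The libraries labelled heart therefore carried eye markers beside muscle miRNAs, and the brain list, which eye held at a higher level. Whether the brain list in heart came with eye or with brain was not tested. Each comparison with the mean of the somatic groups was also made without heart. In pooled tissue, fewer cells of a type and less RNA per cell cannot be told apart.

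The members differed widely in abundance, and between groups dre-miR-101b varied more than the other 5. Over all libraries the mean was 8906 normalized counts for dre-miR-26a, 7060 for dre-miR-101a, 3057 for dre-miR-26b, 2645 for dre-miR-101b, 1352 for dre-miR-29a and 134 for dre-miR-29b. By this mean they ranked 21, 28, 49, 52, 70 and 160 of all known miRNAs. The highest group mean was 2.85 times the lowest for dre-miR-26b, 3.70 times for dre-miR-26a and 4.51 times for dre-miR-101a. It was 6.06 times for dre-miR-29a, 6.08 times for dre-miR-29b and 20.1 times for dre-miR-101b. Over 216 miRNAs whose mean reached 10 normalized counts the median of this ratio was 18.5, so 5 of the 6 members varied less between groups than the typical known miRNA. These 216 were not matched to the members in abundance, and a low count in any group raises the ratio. Together the members took 1.18% ± 0.0175 (SD, n = 3) of the counts in embryo, the lowest group, and 3.13% ± 0.317 (SD, n = 3) in male liver, the highest.

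**Figure D1:**
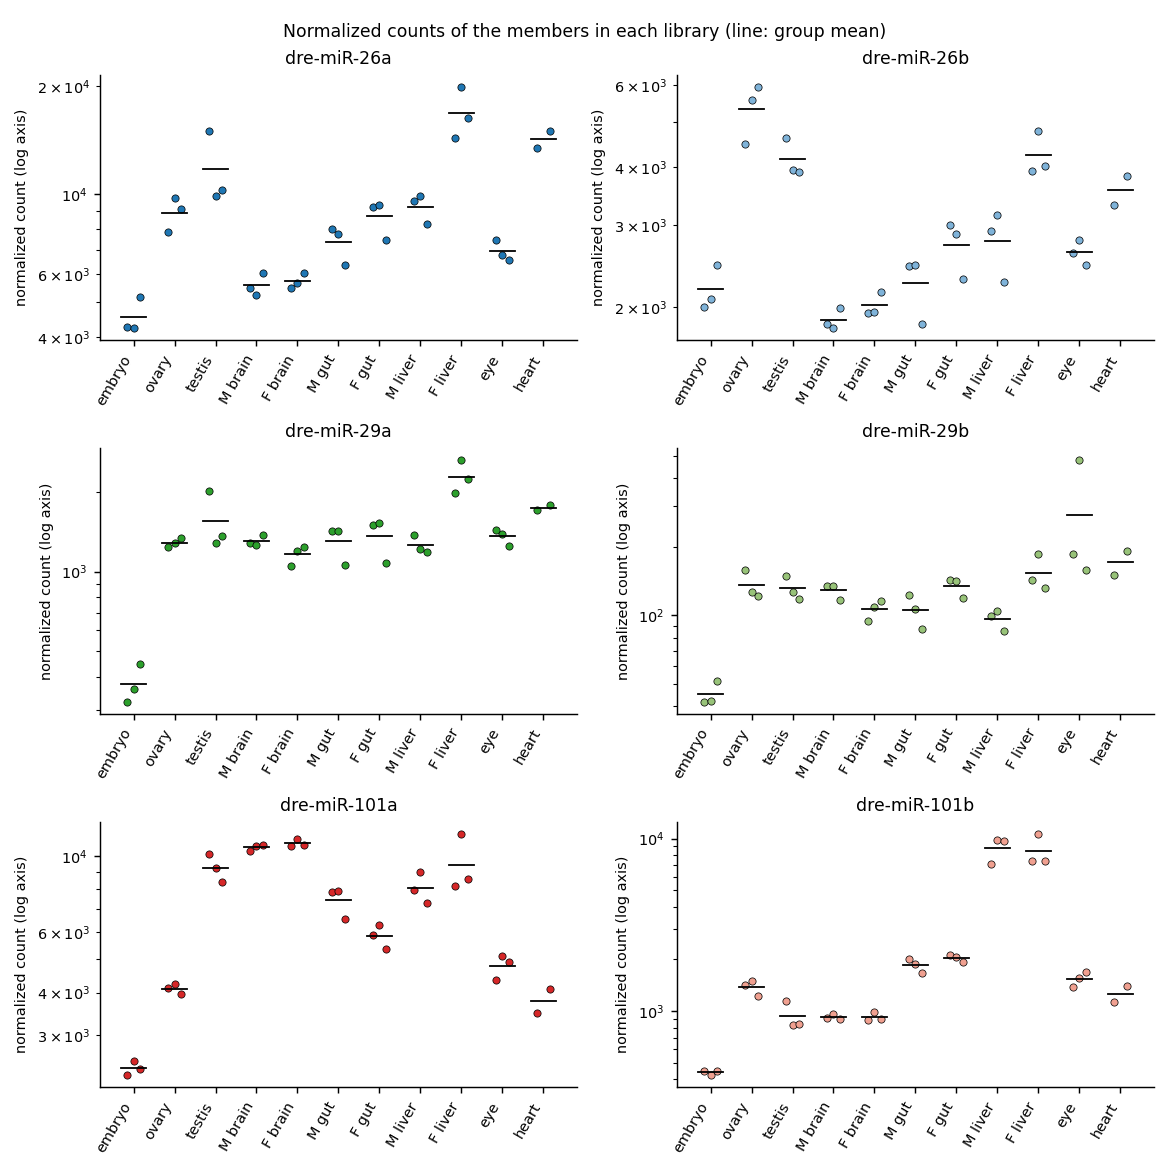
Normalized counts of the 6 members (vertical log axes) in the 11 groups (M, male; F, female). Each point is 1 library and each line a group mean. Both dre-miR-29 members sit lowest in embryo, and dre-miR-101b stands at 7154 or above in all liver libraries and at 2113 or below elsewhere.

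The embryo group was compared with the mean of the 8 adult somatic groups. That group joined embryos with juveniles and was set against single adult tissues, so stage, differentiation and tissue make-up cannot be told apart. Both miR-29 members and both miR-101 members were lower in embryo, while dre-miR-26a and dre-miR-26b did not pass the test against a fold change threshold. A miRNA was called when edgeR's glmTreat test against a log2 fold change of 1 gave a Benjamini-Hochberg adjusted p of at most 0.05 over all 238 miRNAs. By this rule 4 of 6 members were called lower, where 16.8% of all miRNAs tested were, and 0 were called higher, where 31.9% were. With edgeR's quasi-likelihood F-test of no change, which sets no fold change threshold, 6 of 6 passed as lower. The adjusted p of this F-test was 1.22e-07 for dre-miR-26a and 0.018 for dre-miR-26b. How many of all miRNAs passed it in embryo is not given here. Against the same somatic mean it passed 180 of 238 in ovary and 178 in testis. The count of 6 therefore cannot be read as particular to the members. The median log2 fold change was −1.59 over the members and 0.34 over all miRNAs tested.

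For dre-miR-29a, a repressor of matrix genes in mammals, the embryo libraries held 323, 360 and 447 normalized counts. The lowest adult library was female brain replicate 1 with 1052, so embryo did not overlap any adult library. The log2 fold change against the somatic mean was −1.93 (SE 0.14, adjusted p = 5.43e-08). Against each adult group alone dre-miR-29a was called lower in 10 of 10 comparisons, with log2 fold changes from −2.59 in female liver to −1.62 in female brain. It was the only miRNA called lower in all 10, which 0.420% of the miRNAs tested were, and it was called in no pair of adult groups. In the single comparisons embryo was called lower for 13.9% of all miRNAs tested against ovary, 17.2% against testis, male gut and male liver, 19.3% against female gut and 22.3% against female liver. Against eye, heart, male brain and female brain these shares were 24.8%, 28.2%, 31.1% and 32.4%.

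The less abundant dre-miR-29b had 41.9, 42.0 and 51.4 normalized counts in embryo, from read counts of 49, 71 and 169. The lowest adult library was male liver replicate 3 with 85.7, again with no overlap. The log2 fold change was −1.61 (SE 0.23, adjusted p = 0.00236), and 7 of 10 single adult groups were called. With library size alone as the scaling the value was −1.29 and the adjusted p 0.05004, which ended the call.

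The embryo held 2298, 2533 and 2394 normalized counts of dre-miR-101a, an EZH2 repressor in human cells, and the adult libraries reached down to 3484 in heart replicate 1. Its log2 fold change was −1.57 (SE 0.11, adjusted p = 8.34e-07). Embryo was not called lower for dre-miR-101a against 3 adult groups, namely ovary, eye and heart. Its relative dre-miR-101b held 445.9, 423.6 and 450.9 in embryo, below the lowest adult library of testis with 827, and gave −2.29 (SE 0.13, adjusted p = 3.77e-11). The 3 groups not called against embryo here were testis and both brain groups, where the log2 fold changes were −1.09, −1.07 and −1.07, and the largest differences were from male liver (−4.33) and female liver (−4.27). Thus embryo was the lowest group for both, but the adult groups nearest to it differed.

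The miR-26 members were closer to the adult level. For dre-miR-26a embryo had 4252, 4232 and 5174 normalized counts, just under the lowest brain library with 5243, and a log2 fold change of −0.93 (SE 0.12, adjusted p = 0.754). Leaving out 1 library gave values from −1.26 to −0.70, and the miRNA was called in 10 of these 32 fits. Those 10 were the fits without a male gut or female liver library, female gut replicate 3, testis replicate 2, eye replicate 3 or heart replicate 1, with adjusted p of 0.00212 to 0.038. Testis had no part in this comparison, and the scaling was estimated anew in each fit. For dre-miR-26b embryo held 2000, 2088 and 2466, within the range of the adult libraries, and the value was −0.29 (SE 0.11, adjusted p = 1) and 0.030 with library size alone. With heart left out of the somatic mean, the same 4 members were called, at −2.40 for dre-miR-101b, −1.89 for dre-miR-29a, −1.70 for dre-miR-101a and −1.57 for dre-miR-29b.

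**Figure D2:**
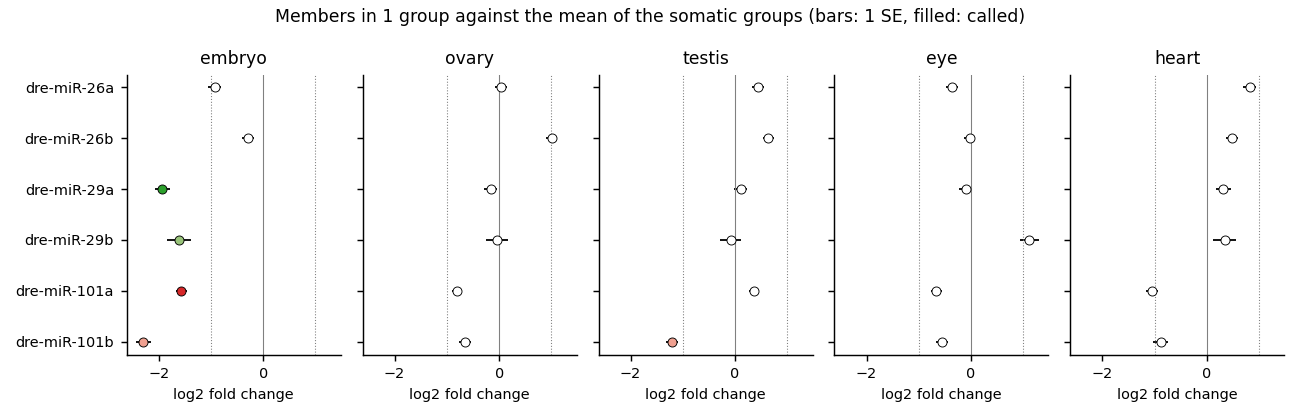
Log2 fold change (horizontal axis) of each member in 1 group against the mean of the somatic groups (the other somatic groups for eye and heart), with bars of 1 SE. Filled points were called against the dotted lines at −1 and 1. The 4 called members in embryo lie between −2.29 and −1.57, and the only other filled point is dre-miR-101b in testis at −1.21.

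Other families were set beside the members in the same comparison. The let-7 family, known for rising as animal cells differentiate, was lower in embryo for 10 of 10 rows, with a median log2 fold change of −1.68. Its values ran from −2.09 for dre-let-7g to −1.23. Of the miR-30 family 1 of 6 rows was called lower, dre-miR-30e-5p at −1.63 (SE 0.15, adjusted p = 3.43e-05), and the median was −0.98. The miR-17 to miR-92 clusters, known for promoting proliferation in mammals, went the other way with 10 of 20 rows higher, 0 lower and a median of 1.16. The largest was dre-miR-18c at 3.49 (SE 0.17, adjusted p = 5.10e-14). The early embryonic miR-430 family, which clears maternal messenger RNA in zebrafish, was higher for 4 of 4 rows and summed to 161845 to 184949 normalized counts in embryo. All these values share the same embryo libraries.

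**Figure D3:**
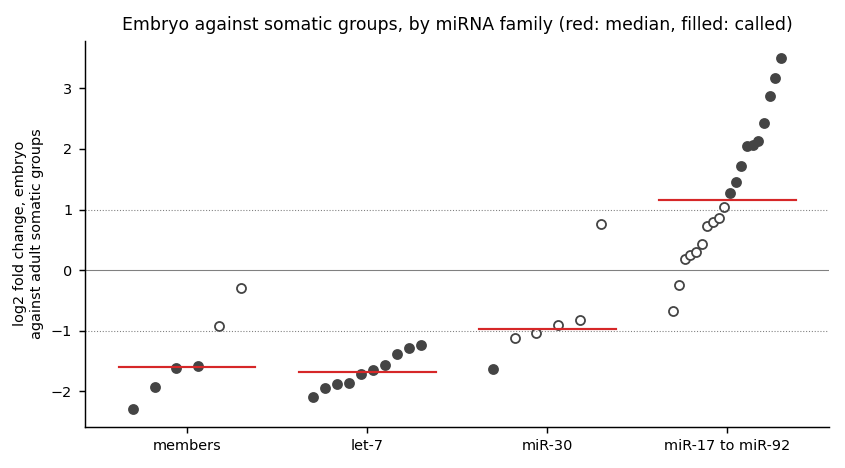
Log2 fold change of embryo against the adult somatic groups (vertical axis) for the 6 members and the let-7, miR-30 and miR-17 to miR-92 families. Each point is 1 miRNA, filled where called, and red lines are medians. The medians of the members (−1.59) and let-7 (−1.68) lie below −1, and that of miR-17 to miR-92 at 1.16.

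Ovary and testis were each compared with the same somatic mean. In ovary 0 of 6 members were called, where 21.4% of all miRNAs tested were called higher and 19.7% lower. With the F-test of no change 3 of 6 passed, where 180 of all 238 miRNAs tested passed. The ovary held 4497, 5589 and 5966 normalized counts of dre-miR-26b, its highest group, and the log2 fold change was 1.00 (SE 0.10, adjusted p = 0.446). It was called under library size alone, at 1.58 (adjusted p = 1.61e-08). The ovary range overlapped that of female liver, 3933 to 4796. By pairs, dre-miR-26b was called higher in ovary than in embryo, both brain groups and male gut, and these were its only 4 calls of 55 pairs. Of all miRNAs tested, 31.5% and 34.5% were higher in ovary than in male and female brain and 19.3% than in male gut. Against the somatic mean the values in ovary were −0.80 (SE 0.10) for dre-miR-101a and −0.65 (SE 0.12) for dre-miR-101b, with adjusted p = 1 each. The ovary mean of dre-miR-101b, 1376 normalized counts, was above those of heart, testis, both brain groups and embryo, and by pairs ovary was called lower than the liver groups alone. Of the let-7 family, 8 of 10 rows were lower in ovary, with a median of −2.00, while the median of the members was −0.10.

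In testis dre-miR-101b was called lower, with 1138, 827 and 839 normalized counts and a log2 fold change of −1.21 (SE 0.12, adjusted p = 0.0301), 1 of 6 members where 23.9% of all miRNAs tested were lower and 13.9% higher. The testis libraries overlapped brain, where both sexes ranged from 886 to 989. By pairs the testis was called lower than male liver (−3.24, where 18.1% of all miRNAs tested were lower) and female liver (−3.19, where 21.8% were), and than no other somatic group. The call was lost with DESeq2 size factors (−1.14, adjusted p = 0.0878), library size alone (−1.09, adjusted p = 0.154), the low-count filter (−1.16, adjusted p = 0.0593) and the DESeq2 test (−1.14, adjusted p = 0.584), and in 12 of 32 fits that left out 1 library (−1.17 to −0.99, adjusted p = 0.0908 to 0.576). Those 12 were the fits without an embryo or ovary library, male brain replicate 1, female brain replicate 2, testis replicates 2 or 3, or eye replicates 1 or 2. The other members were not called in testis, with log2 fold changes from −0.08 for dre-miR-29b to 0.64 for dre-miR-26b.

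Between the gonads 0 of 6 members were called, where 30.3% of all miRNAs tested were. The F-test of no change passed 4 of 6, where 167 of all 238 miRNAs tested passed. The nearest to a call was dre-miR-101a, with 4118, 4231 and 3958 normalized counts in ovary and 10103, 9199 and 8365 in testis. The groups did not overlap, and the log2 fold change of ovary against testis was −1.17 (SE 0.13, adjusted p = 0.0856). It was called at −1.33 with DESeq2 size factors and the DESeq2 test, at −1.21 with the filter, and in 20 of the 32 fits that left out 1 library (−1.36 to −1.20, adjusted p from 0.00162 to 0.0432). The 12 fits in which it was not called were those without testis replicate 1 or 2, male brain replicate 2 or 3, female brain replicate 1 or 3, female gut replicate 1 or 2, heart replicate 2 or a male liver library.

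Liver was compared with gut and brain. The clearest pattern among the members was dre-miR-101b, which was higher in liver of both sexes than in all other groups, while its relative dre-miR-101a was highest in brain. Male liver held 7154, 9761 and 9639 normalized counts of dre-miR-101b and female liver 7380, 10678 and 7458. Male gut held 2013, 1866 and 1664 and female gut 2113, 2055 and 1926, the highest of the other groups. Every liver library was above every other library, and the sexes overlapped within liver. The log2 fold change of liver against gut was 2.16 (SE 0.11, adjusted p = 8.34e-11), 1 of 6 members called higher where 5.88% of all miRNAs tested were and 10.9% were lower. Against brain it was 3.23 (SE 0.11, adjusted p = 6.75e-18), where 37.0% of all miRNAs tested were higher and 31.9% lower. A miRNA was associated with a tissue when it was called higher there than in every group of other tissues, and dre-miR-101b in liver was the only such case among the members, where 4.62% of all miRNAs tested were associated with liver. The closest group was female gut, at 2.12 for male liver (adjusted p = 6.19e-07) and 2.07 for female liver (adjusted p = 2.67e-07), where 7.14% and 9.66% of all miRNAs tested were higher in male and female liver than in female gut.

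The liver libraries held all 3 rows of the gut list, at a sum of 97517 to 150075 normalized counts beside 208330 to 286946 in gut. The gut libraries held miR-122 at 1855 to 11329. Whether such counts came from a tissue's own cells or from the other tissue was not tested.

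For dre-miR-26a, male liver held 9540, 9871 and 8270 normalized counts and female liver 14298, 19937 and 16308, against 5243 to 6027 in the 6 brain libraries. Liver was above brain in all 6 libraries, with a log2 fold change of 1.14 (SE 0.11, adjusted p = 0.0451). This call was lost with DESeq2 size factors (0.89), library size alone (0.76), the DESeq2 test (0.89) and the replicate block (1.14, adjusted p = 0.0511), and in 22 of the 32 fits that left out 1 library (0.81 to 1.13, adjusted p from 0.0658 to 1). It was kept only in the fits without male brain replicate 3, female brain replicate 3, female gut replicate 1 or 2, male liver replicate 3, testis replicate 1 or 3, eye replicate 3 or either heart library. Lists of other cell types were also higher in liver than in brain. Vessel miRNAs (miR-126, miR-143 and miR-145, 6 of 6 rows) summed to 16450 to 29539 in liver, 3997 to 4832 in brain and 37669 to 51447 in gut. The higher sum in gut lay in dre-miR-143 and dre-miR-145. For dre-miR-143 the means were 21612 in male and 19758 in female gut, and 8218 and 5843 in male and female liver. The miR-126 rows were near equal in gut and liver, as for dre-miR-126a-3p with 3359 and 4241 beside 3603 and 4433. Blood cell miRNAs (7 of 7 rows with counts) summed to 8955 to 19742 in liver and 2821 to 3403 in brain. Among them dre-miR-150 averaged 1556 in female liver, below 2068 in male and 1918 in female brain. The median blood cell sum was 15879 in male and 10389 in female liver, while dre-miR-26a was higher in female liver. Their part in the difference was not tested.

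Between brain and gut 0 of 6 members were called, where 33.6% of all miRNAs tested were higher and 31.1% lower. The F-test of no change passed 4 of 6, where 212 of all 238 miRNAs tested passed. The miR-101 members moved in opposite directions, at 0.70 (SE 0.09, adjusted p = 1) for dre-miR-101a and −1.07 (SE 0.10, adjusted p = 0.153) for dre-miR-101b. In brain, dre-miR-101a reached its highest group means, with 10298, 10719 and 10743 normalized counts in males and 10650, 11208 and 10753 in females. The next group was female liver with 8173, 11605 and 8537, which overlapped brain.

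The relation of 2 members within a library does not depend on the scaling between libraries, so the ratio of the b form to the a form was taken from the read counts of each library and its log2 compared by two-sided exact permutation tests. Of 15 such tests, 8 passed an adjusted p of 0.05. In liver dre-miR-101b and dre-miR-101a were about equally abundant, at ratios of 0.898, 1.09 and 1.32 in males and 0.903, 0.920 and 0.874 in females. Brain lay between 0.0832 and 0.0894 in all 6 libraries and gut between 0.236 and 0.360. Within gut the sexes did not overlap, with males at 0.256 or below and females at 0.327 or above, and the tests joined the sexes. The log2 ratio was higher in liver than in gut by 1.75 and than in brain by 3.52, and lower in brain than in gut by 1.77, with exact permutation p = 0.00216 and adjusted p = 0.00541 in each, and the ranges never overlapped. This p is the smallest that 6 libraries against 6 can give. Testis ratios of 0.113, 0.0899 and 0.1003 lay near those of brain, and ovary, with 0.343, 0.354 and 0.308, lay above testis by 1.73 on the log2 scale (exact permutation p = 0.1, the smallest that 3 against 3 allow).

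For the miR-26 pair the b form was always the less abundant. The ratio of dre-miR-26b to dre-miR-26a was highest in ovary with 0.575, 0.574 and 0.656, followed by embryo with 0.470, 0.493 and 0.477. The somatic libraries lay between 0.241 in female liver replicate 2 and 0.411 in eye replicate 2. Embryo was above all 23 somatic libraries, by 0.62 on the log2 scale (exact permutation p = 0.000769, adjusted p = 0.00541, the smallest raw p that the design can give). The 23 libraries come from 8 groups and were exchanged as if independent, so this p also takes in the spread between tissues. The ratio of the miR-26 members, neither of which was called in embryo, thus lay outside its somatic range there. The ratio was lower in liver than in brain by 0.32 and higher in brain than in gut by 0.16 on the log2 scale (adjusted p = 0.00541 in both exact permutation tests), while liver and gut overlapped (−0.17, adjusted p = 0.0649). The overlap was in male liver (0.274 to 0.320), since female liver (0.241 to 0.275) lay below all gut libraries (0.290 to 0.326). The liver and gut difference passed without male liver replicate 1 or 2, at −0.21 and −0.20 (adjusted p between 0.0144 and 0.0433 by exact permutation tests).

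The ratio of dre-miR-29b to dre-miR-29a was at most 0.130 in all libraries but 1. It was lower in liver than in gut by 0.33 (exact permutation p = 0.00866, adjusted p = 0.0162) and than in brain by 0.41 on the log2 scale (exact permutation p = 0.00433, adjusted p = 0.00928), with overlapping ranges. The exception was eye replicate 2 with 0.345, beside 0.130 and 0.127 in the other eye libraries. Embryo was higher than the somatic libraries by 0.35 on the log2 scale with eye replicate 2 (adjusted p = 0.299) and by 0.43 without it (adjusted p = 0.0261), both by exact permutation tests. These tests, too, exchanged libraries of all somatic groups as if independent.

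**Figure D4:**
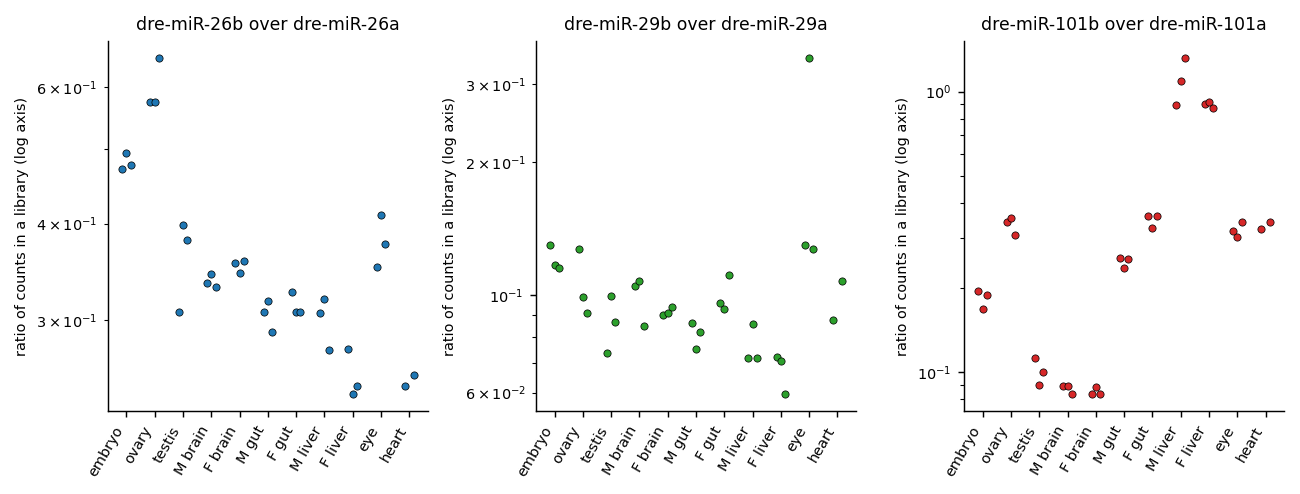
Ratio of the read counts of the b form to the a form of each family in every library (vertical log axes) by group (M, male; F, female). Each point is 1 library. The miR-101 ratio lies between 0.874 and 1.32 in liver and at 0.0894 or below in brain.

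Eye and heart were compared with the mean of the other somatic groups, and 0 of 6 members were called in either. In eye 21.0% of all miRNAs tested were called higher and 10.5% lower, and in heart 23.5% and 13.0%. The F-test of no change passed 4 members in eye and 5 in heart, where 170 and 185 of all 238 miRNAs tested passed. For dre-miR-29b eye held 186, 479 and 158 normalized counts, from read counts of 553, 587 and 164, so replicate 2 alone stood far above the other libraries. The log2 fold change was 1.12 (SE 0.18, adjusted p = 0.308). It was 0.56 without replicate 2, and 1.38 and called without replicate 1 (adjusted p = 0.0396). The same replicate held 1388 of dre-miR-29a, between 1439 and 1248 in the other eye libraries, so the excess was in the b form.

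Heart was the second highest group for dre-miR-26a, with 13424 and 15025 normalized counts and a log2 fold change of 0.82 (SE 0.13, adjusted p = 1). It was called under library size alone at 1.25. The lowest adult level of dre-miR-101a was also in heart, with 3484 and 4082, at −1.05 (SE 0.12, adjusted p = 0.322). That value was called at −1.34 with DESeq2 size factors and the DESeq2 test, and in 9 of the 32 fits that left out 1 library (−1.38 to −1.25, adjusted p from 0.000287 to 0.00794). Those 9 were the fits without a male gut or female liver library, female gut replicate 3, testis replicate 2 or eye replicate 3. In heart dre-miR-101b was −0.89, and it was called only without female liver replicate 1 (−1.21, adjusted p = 0.0488). Eye also held little dre-miR-101a, with 4362, 5105 and 4899 and a log2 fold change of −0.66 (SE 0.10, adjusted p = 1). Heart, ovary and eye held the lowest group means of dre-miR-101a among the adult groups. The part of the eye markers in the heart values was not tested.

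Sex was compared within brain, gut and liver. By the glmTreat test 0 of 6 members differed between the sexes in any of the 3 tissues, where 3.78% of all miRNAs tested were called in brain, 2.94% in gut and 15.1% in liver. The F-test of no change passed 0 members in brain, dre-miR-101a in gut, and both miR-26 and both miR-29 members in liver. Of all 238 miRNAs tested, 71 passed it in gut and 128 in liver. The number in brain is not given here, so the 0 members there cannot be set beside a share. In brain the log2 fold changes of female against male lay between −0.26 and 0.10. In gut dre-miR-101a held 5874, 6286 and 5357 normalized counts in females and 7862, 7912 and 6559 in males, without overlap, at −0.35 (SE 0.12).

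In liver the miR-26 and miR-29 members were higher in females by the F-test. For dre-miR-29a female liver held 1975, 2638 and 2230 normalized counts and male liver 1379, 1216 and 1191, with no overlap, at 0.85 (SE 0.16, adjusted p = 1 by glmTreat and 8.38e-05 by the F-test). For dre-miR-26a the values given above did not overlap either, at 0.87 (SE 0.15, adjusted p = 1 by glmTreat and 2.90e-05 by the F-test). The values were 0.61 for dre-miR-26b and 0.68 for dre-miR-29b, while dre-miR-101a (0.22) and dre-miR-101b (−0.06) lay near 0. The sex difference of liver itself differed by the F-test from that of gut for 3 of 6 members, where 26.5% of all miRNAs tested did, and from that of brain for 4 of 6, where 37.4% did. These directions depend on the scaling. With library size alone the median of all miRNAs moved by −0.72 in this comparison, dre-miR-26a and dre-miR-29a came to 0.14 and 0.13, and dre-miR-26b and dre-miR-29b to −0.10 and −0.05. The liver marker miR-122 moved with sex, at 77658 to 124047 in females and 31463 to 45261 in males, and its part in the scaling was not tested.

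**Figure D5:**
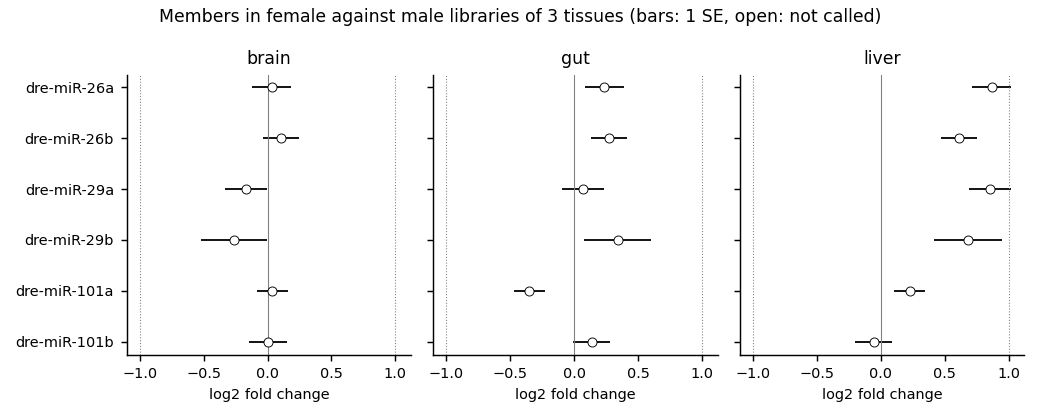
Log2 fold change of female against male libraries (horizontal axis) of each member in brain, gut and liver, with bars of 1 SE and dotted lines at −1 and 1. All points are open since none was called. In liver the miR-26 and miR-29 members lie between 0.61 and 0.87.

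The order of the groups was read from the group means, and neighbours in that order were compared by the pairwise tests. Over all 55 pairs of groups 46.9% of the tests of all miRNAs were called. Among the members dre-miR-101b was called in 23 of 55 pairs, each with liver or embryo on 1 side. In the same 55 pairs dre-miR-101a was called in 15, dre-miR-29a in 10, dre-miR-26a and dre-miR-29b in 8 each and dre-miR-26b in 4. Neighbours differed in 2 places. The step from female liver down to female gut was called for dre-miR-101b, at 2.07, and the step from female brain down to embryo for dre-miR-29a, at 1.62 in size (adjusted p = 0.000119). All other neighbours in the order of each member did not differ beyond the test.

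The miRNAs with the most similar pattern were found by Pearson's r of the group means of log2(normalized count + 1) over the 11 groups among 216 miRNAs, with the 6 members themselves left out of the lists. These are descriptions over 11 points whose libraries are shared by both miRNAs. For dre-miR-29a they were dre-miR-30b (0.93), dre-miR-130a (0.87) and dre-miR-30e-5p (0.72), and for dre-miR-29b dre-miR-30b (0.78), dre-miR-130a (0.75) and dre-miR-126a-5p (0.62). For dre-miR-26a they were dre-miR-130a (0.84), dre-miR-22a (0.83) and dre-miR-30c (0.83), and for dre-miR-26b dre-miR-457a (0.83), dre-miR-15b (0.80) and dre-miR-130a (0.79). The list of dre-miR-101a held dre-miR-15a-3p (0.84), dre-miR-2188-3p (0.82) and dre-miR-30d (0.79), and that of dre-miR-101b dre-miR-722 (0.92), dre-miR-30e-5p (0.87) and dre-let-7e (0.86). Within the families r was 0.82 for the miR-29 pair, 0.77 for the miR-26 pair and 0.38 for the miR-101 pair, and it was 0.78 between dre-miR-29a and dre-miR-26a. The miR-29 members were thus closer to each other than dre-miR-29b was to any listed miRNA. The miR-26 and miR-101 pairs had lower r than the miRNAs listed for them. Those were picked as the highest among 216 miRNAs, so this cannot show that a pair is unusually unlike.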

How the data were processed

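Small RNA libraries of 33 samples (embryo and 10 adult groups) were made with the TruSeq small RNA kit, and 32 were analysed here. Per the labels and methods, the authors called bases with CASAVA 1.8.2, trimmed adapters with cutadapt, discarded short reads and counted reads on mature zebrafish miRNAs of miRBase with the miRDeep2 quantifier, and they left out 1 heart library, which was not analysed here. The deposited tables hold read counts, and a deposited signal of normalized counts, which equals each library's counts times 1 factor from the authors' TMM scaling by edgeR. How miRDeep2 treated reads that match related miRNAs is not given in the sources used here.

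The deposited counts were fitted by group over all libraries with edgeR 4.0.16 (R 4.3.3; TMM, quasi-likelihood). Contrasts were tested by glmTreat against a log2 fold change of 1, and sex differences between tissues by the F-test, with Benjamini-Hochberg adjustment over 238 miRNAs and calls at 0.05. A comparison with the somatic mean gave each group equal weight. Ratios within a library were compared by two-sided exact permutation tests in Python 3.11.15, scipy 1.17.1. Labels name separate replicates of pooled fishes, and p-values of the fits measure the spread between these pools. Ratio tests that join several groups (tissues or sexes) also take in the spread between those groups. No replicate pair agreed within sampling noise (chi-square per degree of freedom at least 3.71 over 31 pairs). Described miRNAs were the 6 members, named rows of the comparison families by largest change, and for each member the 3 miRNAs outside the 6 members with the most similar pattern. Alternatives were other scalings, a filter on low counts (filterByExpr), the DESeq2 1.42.0 test, a likelihood ratio test, the F-test, a replicate block, and leaving out each library. The fits were also run on simulated counts, in which all groups shared a common profile and changes were set in female liver alone. Such counts cannot test the scaling between unlike tissues. Members and lists were chosen with earlier results of these data known. Gene neighbours came from RefSeq GRCz12tu by name, without coordinates, since its build is not that of the counting reference.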

Additional observations from a re-analysis of the deposited data

Results flagged for a closer look

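The sex difference in liver was set against that in gut and brain by an interaction term in the same edgeR fit, as the log2 fold change of female against male in liver minus that in the other tissue, tested by the F-test of no difference. Against gut it passed for 3 of 6 members, where 26.5% of all miRNAs tested passed in either direction. It was 0.78 (SE 0.23, adjusted p = 0.0156) for dre-miR-29a, 0.63 (SE 0.21, adjusted p = 0.0336) for dre-miR-26a and 0.58 (SE 0.17, adjusted p = 0.0205) for dre-miR-101a. Against brain it passed for 4 of 6 members, where 37.4% of all miRNAs tested passed. The values were 1.02 (SE 0.23, adjusted p = 0.00102) for dre-miR-29a, 0.95 (SE 0.37, adjusted p = 0.0472) for dre-miR-29b, 0.84 (SE 0.21, adjusted p = 0.00327) for dre-miR-26a and 0.51 (SE 0.20, adjusted p = 0.0491) for dre-miR-26b. All were more female in liver than in the tissue compared. For dre-miR-101a the female against male value was 0.22 in liver, which did not pass the F-test. In gut it was −0.35, which did.

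These differences depend on the scaling. With library size alone the values against gut turned to −0.09 for dre-miR-29a, −0.24 for dre-miR-26a and −0.31 for dre-miR-101a, and the median of all miRNAs moved by −0.72 between female and male liver. The members that passed against gut were then dre-miR-101a, dre-miR-26b (−0.53) and dre-miR-101b (−1.10), all as less female in liver. Against brain all 4 calls were lost, at 0.36 for dre-miR-29a (adjusted p = 0.0614), 0.27 for dre-miR-29b (adjusted p = 0.538), 0.17 for dre-miR-26a (adjusted p = 0.296) and −0.15 for dre-miR-26b (adjusted p = 0.414). Instead dre-miR-101a (−0.49, adjusted p = 0.00116) and dre-miR-101b (−0.76, adjusted p = 0.000775) passed there as less female in liver. Without male liver replicate 3 the value of dre-miR-26a against gut was 0.56 (adjusted p = 0.0715). Without eye replicate 3 or heart replicate 1, dre-miR-26b also passed against gut (0.53) and dre-miR-101a against brain (0.46). The call of dre-miR-26b against brain was lost in 11 of the 32 fits that left out 1 library (adjusted p from 0.0517 to 0.149). Those were the fits without male brain replicate 2 or 3, female brain replicate 1 or 2, female gut replicate 1 or 2, male liver replicate 1 or 3, female liver replicate 3, testis replicate 3 or heart replicate 2. That of dre-miR-29b was lost in 20 (adjusted p from 0.0511 to 0.157) and held only without an embryo, ovary or eye library, testis replicate 1 or 3, or heart replicate 1.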

How the results depend on the processing

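The 4 members lower in embryo, dre-miR-101b in liver against gut and brain, its association with liver and the 0 sex calls of glmTreat kept their direction and side of the threshold under the other scalings and tests and without any 1 library, except dre-miR-29b in embryo with library size alone (−1.29) and except under the F-test without a threshold. With DESeq2 size factors the count of members called was 0 in testis, 1 in heart, 1 for liver against brain and 1 between the gonads. With library size alone it was 1 in ovary, 0 in testis, 1 in heart, 1 for liver against brain and 2 for the sex difference of liver minus brain, where the main 4 calls were lost and dre-miR-101a and dre-miR-101b passed in the opposite direction. The low-count filter gave 0 in testis and 1 between the gonads, and the DESeq2 test 0 in testis, 1 in heart, 1 for liver against brain and 1 between the gonads. The F-test passed 6 in embryo, 3 in ovary, 4 in testis, 5 in heart, 4 in eye, 5 for liver against gut, 5 for liver against brain, 4 for brain against gut, 1 and 4 between the sexes in gut and liver, 4 between the gonads, and 2 tissue associations (dre-miR-26b in ovary was added). Of all 238 miRNAs tested it passed 180 in ovary, 178 in testis, 185 in heart and 170 in eye. The number in embryo is not given here. It passed 163 for liver against gut, 211 for liver against brain and 212 for brain against gut. Between the sexes it passed 71 in gut and 128 in liver, and between the gonads 167. Leaving out 1 library gave counts of 4 to 5 in embryo, 0 to 1 in testis, eye and between the gonads, 0 to 2 in heart, 1 to 2 for liver against brain, and 2 to 4 and 2 to 5 for the sex difference of liver minus gut and minus brain. The ratio tests passed 8 to 9.

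Values that changed sign were of members not called, except in the sex difference, where dre-miR-101a, dre-miR-26a and dre-miR-29a had been called against gut and dre-miR-26b against brain. With library size alone dre-miR-26b in embryo was 0.030, dre-miR-29a and dre-miR-29b in ovary 0.42 and 0.53, and dre-miR-26b and dre-miR-29a in eye 0.13 and 0.060. In liver against brain dre-miR-29b was −0.33, in brain against gut dre-miR-29a was 0.22 and dre-miR-29b 0.30, and between the gonads dre-miR-26a was 0.059 and dre-miR-29a 0.19. Between the sexes in liver dre-miR-101a was −0.51, dre-miR-26b −0.10 and dre-miR-29b −0.051. For liver minus gut dre-miR-101a was −0.31, dre-miR-26a −0.24, dre-miR-26b −0.53, dre-miR-29a −0.089 and dre-miR-29b −0.55, and for liver minus brain dre-miR-101a was −0.49 and dre-miR-26b −0.15. With DESeq2 size factors and with the DESeq2 test dre-miR-29b was −0.20 for liver against brain, and dre-miR-29a and dre-miR-29b were 0.12 and 0.20 for brain against gut. The cause was not tested. Library size alone moved the median of all miRNAs by 0.32 in embryo, 0.57 in ovary, 0.43 in heart, −0.39 for liver against brain and −0.72 between the sexes in liver.

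Scaling and spread were estimated anew in each fit without 1 library, so a library could change calls of a comparison it had no part in. In embryo the lowest of these values lay below the main value by similar amounts for all members. They were −1.90 beside −1.57 for dre-miR-101a and −0.62 beside −0.29 for dre-miR-26b. The part of scaling in these shifts was not tested. Without 1 library dre-miR-29a ranged from −0.13 to 0.33 in testis, −0.017 to 0.45 in heart and −0.14 to 0.28 for brain against gut. For dre-miR-29b it was −0.18 to 0.22 in testis, −0.27 to 0.10 for liver against brain, −0.069 to 0.38 for brain against gut and −0.27 to 0.13 between the gonads. For dre-miR-26a it was −0.11 to 0.15 in ovary, for dre-miR-26b −0.37 to 0.045 for brain against gut and −0.041 to 0.23 between the sexes in brain, for dre-miR-101a −0.11 to 0.16 there, and for dre-miR-101b −0.26 to 0.20 for liver minus brain.

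Taken over all pairs of groups, same-numbered samples did not deviate together (r from −0.42 to 0.27, over 0.1 in 32 of 155 pairs), so the numbers were not taken as a pairing. Between the sexes r was positive in brain (0.21, 0.049 and 0.25) and gut (0.23, 0.23 and 0.024). In liver it was 0.16, −0.063 and −0.072. The replicate block changed the count of liver against brain to 1 and the adjusted p of dre-miR-26b in liver minus brain to 0.0504, and no other call. The somatic mean without heart, chosen after seeing the data, changed no call. Depth limited dre-miR-29b most, with counts down to 49.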
